A study of Homo sapiens with 9 samples.

Results

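Dystroglycan is a cell surface receptor for matrix proteins, and its grip on them depends on a sugar chain that a row of enzymes builds on its alpha subunit. The genes described here are DAG1, which encodes dystroglycan, and 5 genes for enzymes that build this chain: POMT1, POMT2, POMGNT1, B3GALNT2 and B4GAT1. The members were all probe sets whose only gene symbol in the platform's probe table is one of these 6. The rule found 12 probe sets of 5 genes, out of 54675 probe sets and 19775 named genes on the arrays. Of the 12, 1 reports POMT1, 2 report POMT2, 3 report POMGNT1, 4 report B3GALNT2 and 2 report B4GAT1. DAG1 itself has no probe set listed under its symbol alone and is not analysed here, so the measurements below are those of the enzymes and not of the receptor. The genes were chosen with earlier results of these data known: B4GAT1 was selected on its fall with the mimic against the scrambled control, and the others as its partners in the pathway. Values of all members in that comparison, and of B4GAT1 in every comparison, are therefore a description with no p-value. Where a count of calls includes them, nothing is read from it.

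Synthesis of the chain starts in the endoplasmic reticulum, where POMT1 and POMT2 act together to place a mannose on serine or threonine of the alpha subunit. POMGNT1 then extends that mannose with N-acetylglucosamine in one type of chain, and B3GALNT2 adds N-acetylgalactosamine in the type that carries the matrix binding sugar. Further enzymes lengthen the chain up to a xylose, after which B4GAT1 places the glucuronic acid that LARGE2 needs in order to extend the repeating xylose and glucuronic acid polymer. That polymer is what laminins, agrin and perlecan bind. Inherited loss of these enzymes can cause muscular dystrophies, and the chain is also made in epithelia.

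The cells were Hec50, an established line from an aggressive human endometrial cancer. In 3 samples they had received a miR-200c mimic, in 3 a scrambled negative control RNA and in 3 a mock transfection. Exposure to either RNA was 48 hours at 60 nM, whereas no exposure time is labelled for mock. All 9 came from a single cell line, and the labels do not say that the replicates of a group were separate cultures, so each p-value measures a spread between samples that may be technical. RNA was hybridised to 1-colour Affymetrix arrays, and the precision is limited by their number.

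The deposited values are on a log scale, taken here as log2, and are centred so that each probe set has a median of 0 over the 9 arrays. They give differences between arrays and no levels. A coarse level class before centring (8 or more, 4 to 8, or below 4 on the log2 scale) was recovered from the rounding of the stored numbers. Epithelial markers were in the highest class for 5 of 6 genes and mesenchymal markers for 3 of 3. Of the endometrial lineage markers, PAX8 and WT1 were in the highest class, ESR1 lay in the middle one and PGR in the lowest. None of 5 skeletal muscle, 3 leukocyte or 3 endothelial markers was in the highest class. As a check of the mimic, ZEB1, a repressor of epithelial genes and a well known miR-200c target, fell (log2 change -1.57 against scrambled control and -1.56 against mock). CDH1, which encodes E-cadherin and is repressed by ZEB1, rose by 3.26 and 3.55 on the log2 scale (limma, adjusted p at most 1.91e-07 for both genes). The 3 comparisons share arrays, so they are not independent of each other.

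The agent that separates the groups is miR-200c, which recognises messages through its seed, bases 2 to 8. Its mature strand is shown beside its 4 relatives, from RefSeq (GRCh38.p14), with the seed in capitals, because the seed sets which relatives could act on the same messages. The strand of miR-200c lies at chr12:6963742-6963764 on the plus strand.
hsa-miR-200c-3p: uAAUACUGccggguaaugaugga
hsa-miR-200b-3p: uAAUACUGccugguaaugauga
hsa-miR-429: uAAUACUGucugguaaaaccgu
hsa-miR-200a-3p: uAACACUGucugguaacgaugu
hsa-miR-141-3p: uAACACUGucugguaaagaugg
Of the 5 sequences, 3 share the seed AAUACUG with the mimic, and 2 carry U4C, counted from the 5′ end. The sequence of the scrambled control and any modification of the mimic are not given in the sources used here.

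B4GAT1 was the member with a large difference. One of its 2 probe sets, 203188_at, read -1.09, -1.12 and -1.25 on the mimic arrays, 0.12, 0.24 and 0.00 on the scrambled control arrays, and -0.03, 0.17 and 0.17 on the mock arrays (centred log2 expression). All 3 mimic arrays lay more than 1 log2 unit below every other array, and the scrambled and mock arrays overlapped. The mean was -1.16 ± 0.09 with the mimic, 0.12 ± 0.12 with the scrambled control and 0.10 ± 0.11 in mock cells (SD, n = 3 each).

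In fold terms, B4GAT1 at 203188_at was 2.42-fold lower in mimic cells than in scrambled control cells (log2 change -1.27, SE 0.08). This was the 16th lowest change among 54613 probe sets tested, and it is the value for which the gene was chosen. Against mock the same probe set was 2.40-fold lower with the mimic (log2 change -1.26, 95% interval -1.44 to -1.08). That interval takes no account of the choice of the gene on these same mimic arrays. Between scrambled control and mock the change was 0.01, with an interval of -0.16 to 0.19. The probe set is in the highest level class, 8 or more. In RNA of a whole culture, fewer cells with the message and less of it per cell cannot be told apart.

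The other B4GAT1 probe set, 228203_at, did not show this difference. It read 0.00, -0.10 and 0.00 on the mimic arrays, 0.02, 0.00 and 0.07 on the scrambled control arrays, and 0.00, 0.11 and -0.30 on the mock arrays. The groups overlapped, and the third mock array stood lowest. Its changes were -0.06 for mimic against scrambled control, 0.03 for mimic against mock and 0.09 for scrambled control against mock. This probe set lies in the middle level class, 4 to 8, and the Pearson correlation between both B4GAT1 probe sets over the 9 arrays was 0.03. The 2.42-fold value therefore belongs to 1 probe set, and averaging both gave a log2 change of -0.67 against scrambled control and -0.61 against mock.

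**Figure D1:**
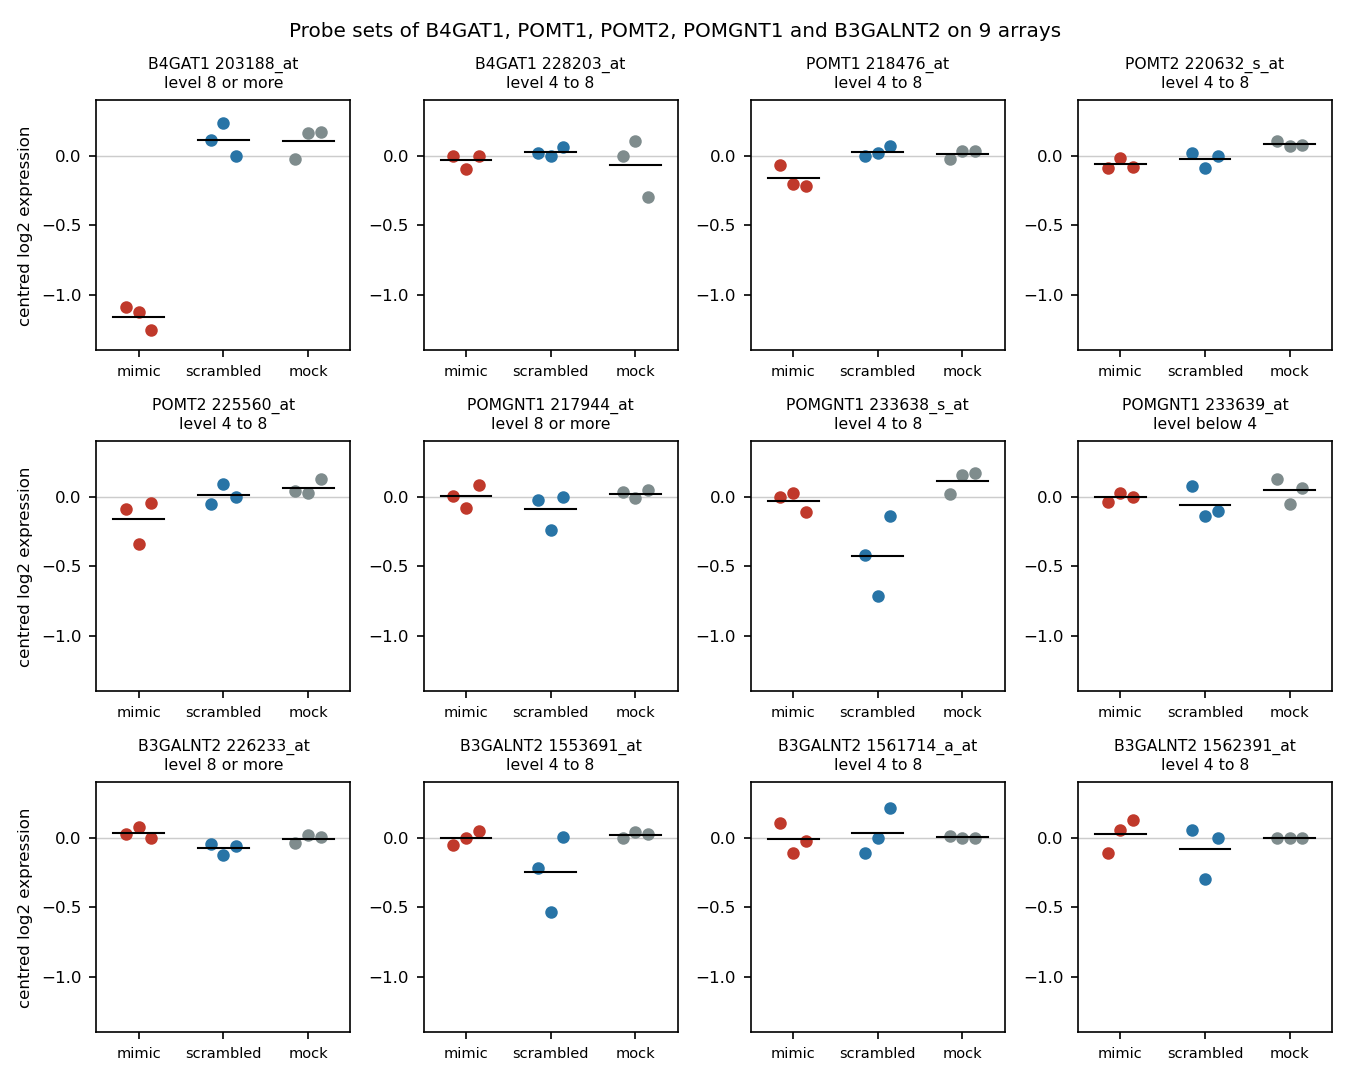
Centred log2 expression (vertical axis, the same range in every panel) of the 12 probe sets on each array, by group from left to right: miR-200c mimic, scrambled control, mock. Points are arrays and lines are group means (n = 3). B4GAT1 203188_at is far below the other groups on all 3 mimic arrays, B4GAT1 228203_at is not, and POMGNT1 233638_s_at is low on the scrambled control arrays.

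POMT1 and POMT2 form the enzyme pair that starts the chain, and both had slightly lower values with the mimic. POMT1, at its single probe set 218476_at, read -0.06, -0.20 and -0.22 on the mimic arrays, 0.00, 0.02 and 0.07 on the scrambled control arrays, and -0.02, 0.03 and 0.04 on the mock arrays. All 3 mimic arrays were below all 6 others. The change was -0.19 against scrambled control (1.14-fold lower) and -0.18 against mock (1.13-fold lower, 95% interval -0.30 to -0.05).

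Whether POMT1 passed in mimic against mock depended on the table tested. Over probe sets its limma adjusted p was 0.0746. Over genes, where the same value is tested among 19775 genes, it was 0.0362, and this call was lost in 9 of 15 alternatives, with an adjusted p of up to 0.127. These include leaving out mimic array 2 or 3, scrambled control array 1, or any of the mock arrays. Between scrambled control and mock, POMT1 changed by 0.02 (95% interval -0.11 to 0.14).

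POMT2 has 2 probe sets in the middle level class. At 220632_s_at the values were -0.09, -0.02 and -0.08 on the mimic arrays, 0.02, -0.09 and 0.00 on the scrambled control arrays, and 0.10, 0.07 and 0.08 on the mock arrays. At 225560_at they were -0.09, -0.34 and -0.05 on the mimic arrays, -0.05, 0.09 and 0.00 on the scrambled control arrays, and 0.04, 0.03 and 0.13 on the mock arrays. At both, every mimic array was below every mock array, while mimic and scrambled control overlapped. At 220632_s_at the scrambled control arrays were also below all mock arrays.

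As the mean of both probe sets, POMT2 was lower with the mimic than in mock cells by 1.14-fold (log2 change -0.19, SE 0.05, limma over genes, adjusted p = 0.0154). Tested singly among all probe sets, neither passed in that comparison: the adjusted p was 0.105 at 220632_s_at (change -0.15) and 0.101 at 225560_at (change -0.22). The gene's call was lost without mimic array 2, which holds the -0.34 reading (adjusted p = 0.0529), and without mock array 3 (adjusted p = 0.0517). As a gene, POMT2 changed by -0.11 for mimic against scrambled control and by -0.08 for scrambled control against mock (limma over genes, adjusted p = 0.311 for scrambled control against mock). At both probe sets the scrambled control mean lay between the mimic and mock means.

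POMGNT1, which extends the mannose, was read by 3 probe sets that did not behave alike. The one in the highest level class, 217944_at, read 0.00, -0.08 and 0.09 on the mimic arrays, -0.02, -0.24 and 0.00 on the scrambled control arrays, and 0.04, -0.01 and 0.05 on the mock arrays. The groups overlapped, with the second scrambled control array lowest. Its change was 0.09 for mimic against scrambled control, -0.02 for mimic against mock (95% interval -0.18 to 0.14) and -0.11 for scrambled control against mock (95% interval -0.27 to 0.05).

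The second POMGNT1 probe set, 233638_s_at, was low with the scrambled control. It read 0.00, 0.03 and -0.11 on the mimic arrays, -0.42, -0.72 and -0.14 on the scrambled control arrays, and 0.02, 0.15 and 0.17 on the mock arrays. All 3 scrambled control arrays were below all others, and they were also the most spread, with an SD of 0.29 against 0.08 in mock (n = 3 each). With the scrambled control it fell to a mean of -0.42, against 0.12 in mock (1.45-fold lower, log2 change -0.54, SE 0.12, limma, adjusted p = 0.0352). This was the 277th lowest change of 54613.

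That call for POMGNT1 was lost in 10 of 14 alternatives, with an adjusted p between 0.0503 and 0.111 on leaving out any mimic or mock array or scrambled control array 1 or 2. Without scrambled control array 2 the change was -0.39. The mimic arrays at 233638_s_at changed by -0.14 from mock (95% interval -0.41 to 0.12) and by 0.39 from the scrambled control, and only the scrambled control arrays stood away from the rest here. As background, an ending in _s_at marks probes that match more than one transcript.

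The third POMGNT1 probe set, 233639_at, is in the level class below 4 and ranged from -0.03 to 0.03 on the mimic arrays, -0.14 to 0.07 on the scrambled control arrays and -0.05 to 0.13 on the mock arrays. Its groups overlapped in all 3 comparisons. Its changes were 0.05, -0.05 and -0.10 for mimic against scrambled control, mimic against mock and scrambled control against mock.

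B3GALNT2, which adds N-acetylgalactosamine on the way to the matrix binding chain, has 4 probe sets, and 226233_at is in the highest level class. It read 0.03, 0.07 and 0.00 on the mimic arrays, -0.04, -0.12 and -0.06 on the scrambled control arrays, and -0.04, 0.02 and 0.00 on the mock arrays. The mimic arrays were above and the mock arrays also above the scrambled control arrays, by small amounts: the change was 0.11 for mimic against scrambled control (1.08-fold higher). The lowest mock array (-0.038) and the highest scrambled control array (-0.041) were almost equal. Neither mimic against mock (0.04, 95% interval -0.07 to 0.15) nor scrambled control against mock (-0.07, 95% interval -0.18 to 0.04) passed (limma, adjusted p = 0.705 and 0.5).

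At B3GALNT2 1553691_at the values were -0.05, 0.00 and 0.05 on the mimic arrays, -0.21, -0.54 and 0.00 on the scrambled control arrays, and 0.00, 0.04 and 0.03 on the mock arrays. The first and second scrambled control arrays were low and the third was not. The change for scrambled control against mock was -0.27 (95% interval -0.51 to -0.03) and did not pass over all probe sets (limma, adjusted p = 0.201). For mimic against scrambled control the change was 0.25, and for mimic against mock it was -0.03.

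The remaining B3GALNT2 probe sets, 1561714_a_at and 1562391_at, are in the middle class and their groups overlapped in every comparison. At 1561714_a_at the arrays ranged from -0.11 to 0.11 with the mimic, -0.11 to 0.21 with the scrambled control and 0.00 to 0.02 in mock. At 1562391_at they ranged from -0.11 to 0.13 with the mimic and -0.29 to 0.05 with the scrambled control, and all 3 mock arrays held exactly 0.00. Such ties are common in this table, where 48.89% of probe sets hold the value 0 on more than 1 array, and they lower the spread of a group.

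**Figure D2:**
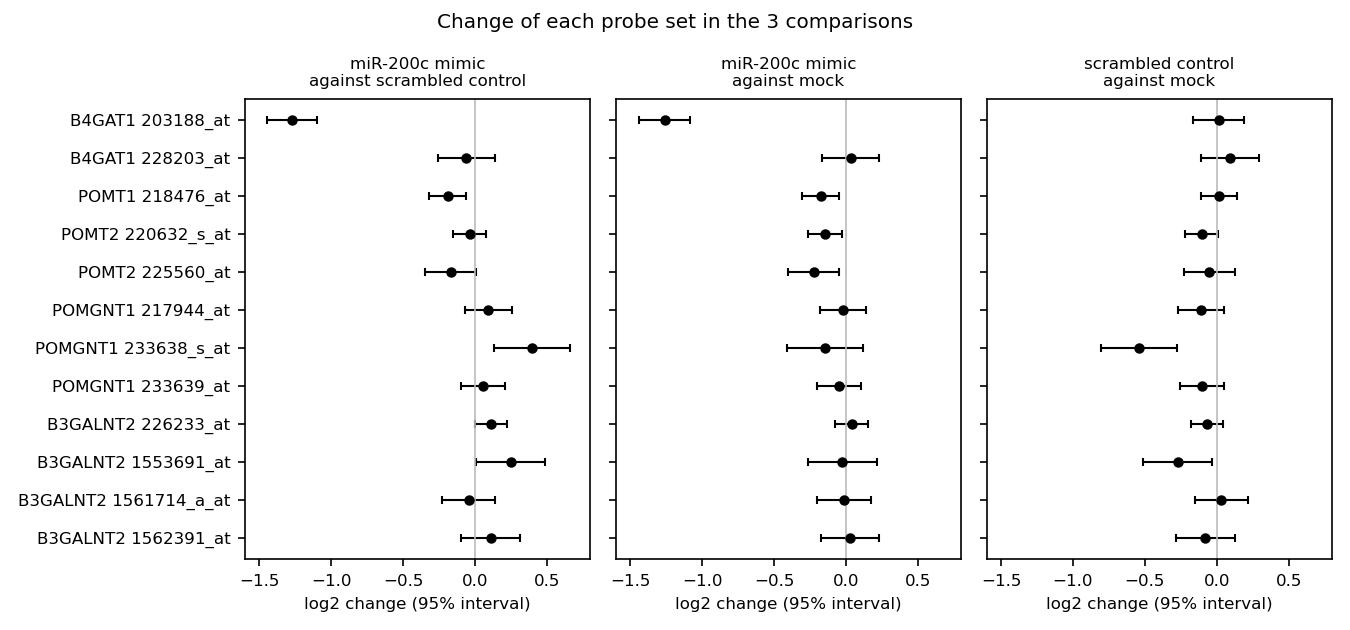
Log2 change (horizontal axis) of each of the 12 probe sets with its 95% interval from the limma fit, in 3 panels for mimic against scrambled control, mimic against mock, and scrambled control against mock. B4GAT1 203188_at stands at -1.27 and -1.26 in both mimic panels and at 0.01 in the third, where POMGNT1 233638_s_at is lowest at -0.54. The intervals take no account of the choice of B4GAT1 on its mimic arrays, and those of all members in the first panel are a description only.

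Counted over the 12 probe sets, 1 was called lower in each comparison at an adjusted p under 0.05 and none was called higher. For mimic against scrambled control that was B4GAT1 203188_at, where 8.66% of all probe sets were called, 4.15% lower and 4.52% higher. For mimic against mock it was the same B4GAT1 probe set, beside 12.1% of all probe sets called, 6.98% lower and 5.07% higher. Nothing is read from either count, because B4GAT1 was chosen on the mimic arrays that both comparisons use. For scrambled control against mock it was POMGNT1 233638_s_at, beside 4.07% called, 2.84% lower and 1.23% higher.

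Counted by whether all arrays of one group lay beyond all of the other, 4 of the 12 member probe sets were lower with the mimic than in mock cells and none was higher, where 14.6% of all probe sets were lower and 13.6% higher. The 4 were B4GAT1 203188_at, which was chosen for its low mimic arrays, POMT1 218476_at and both POMT2 probe sets. For scrambled control against mock, 3 were lower and none higher, where 12.6% of all were lower and 12% higher. Those 3 were POMGNT1 233638_s_at, POMT2 220632_s_at and B3GALNT2 226233_at. At the last, the nearest mock and scrambled control arrays were almost equal (-0.038 and -0.041). For mimic against scrambled control, 2 were lower (B4GAT1 203188_at and POMT1 218476_at) and 2 higher (POMGNT1 233638_s_at and B3GALNT2 226233_at), where 12.5% of all were lower and 11.7% higher.

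The median change over the 12 member probe sets was 0.01 for mimic against scrambled control, -0.04 for mimic against mock and -0.07 for scrambled control against mock. Over all probe sets it was -0.01, 0.01 and 0.01 in the same comparisons. At the level of genes and leaving B4GAT1 aside, POMT1 and POMT2 were called lower for mimic against mock and POMGNT1 and B3GALNT2 did not pass, where 18.6% of all genes were called, 10.2% lower and 8.32% higher. For scrambled control against mock, where 7.82% of all genes were called, 5.16% lower and 2.66% higher, no member gene passed. POMGNT1 as a gene is the value of 217944_at, and as the mean of its 3 probe sets it changed by -0.25 there (limma, adjusted p = 0.0495).

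Some member probe sets varied alike over the 9 arrays, but they did not split into separate groups. Next to B4GAT1 203188_at the closest were POMT1 218476_at (Pearson r = 0.90), POMT2 225560_at (0.72) and POMT2 220632_s_at (0.58). Besides these, POMGNT1 233638_s_at varied with B3GALNT2 1553691_at (r = 0.92), and B3GALNT2 1553691_at varied with POMGNT1 217944_at (r = 0.86). POMT2 220632_s_at was about as close to POMGNT1 233639_at (0.60) and 233638_s_at (0.52) as to B4GAT1 203188_at. B4GAT1 228203_at and B3GALNT2 1561714_a_at correlated with B4GAT1 203188_at at 0.03 and 0.11 only. The correlations describe 9 arrays in 3 groups and share the same RNA samples, so a difference between groups or 1 outlying array can make them.

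**Figure D3:**
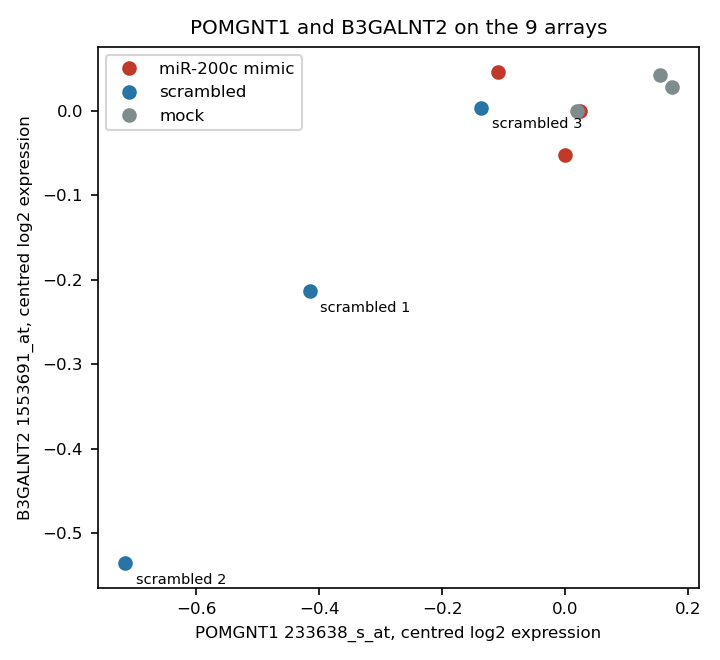
POMGNT1 233638_s_at (horizontal axis) against B3GALNT2 1553691_at (vertical axis), both in centred log2 expression, 1 point per array, coloured by group. Scrambled control arrays 1 and 2 are low on both axes (-0.42 and -0.21 for array 1, -0.72 and -0.54 for array 2), and the other 7 arrays lie close together.

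Scrambled control array 2 was the lowest array at both of these probe sets, and at POMGNT1 217944_at, POMGNT1 233639_at, B3GALNT2 226233_at and B3GALNT2 1562391_at. The distance between 3′ and 5′ control probes of ACTB, a sign of RNA integrity and labelling, was 0.14 on that array in centred log2 units. It ranged from -0.05 to 0.11 on the mimic arrays, 0.06 to 0.14 on the scrambled control arrays and -0.21 to -0.16 on the mock arrays. In this measure neither the mimic nor the scrambled control arrays overlapped the mock arrays, and its part in the differences of POMT1, POMT2 and POMGNT1 from mock was not tested. The same control pair for GAPDH ranged from -0.06 to 0.01 with the mimic, -0.01 to 0.03 with the scrambled control and -0.01 to 0.06 in mock.

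Among genes outside the members, those whose 9 array values were most like B4GAT1's were WIPF1 (r = 0.998), LAMC1 (0.996), PHC1 (0.994), MARCKS (0.993) and FAM8A1 (0.993). Their log2 changes with the mimic against scrambled control were -1.33, -0.57, -0.33, -0.69 and -0.52, and 230 genes in all had r above 0.95 with B4GAT1. B4GAT1 at -1.27 was thus closest in size to WIPF1. In a 3 group design such values pick out any gene that is low on the mimic arrays alone.

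Of the 18 genes listed for later steps of the chain and for its sugar donors, 12 were measured. LARGE2, which extends the polymer from the B4GAT1 product, was higher with the mimic against mock (log2 change 0.25, limma over genes, adjusted p = 0.038) and at 0.19 did not pass against scrambled control (adjusted p = 0.119). POMK and POMGNT2, which act on the mannose and its first sugars, changed by -0.03 each against scrambled control and by 0.07 and -0.07 against mock, and neither passed. RXYLT1, which adds the xylose before B4GAT1 acts, changed by -0.12 against scrambled control and 0.07 against mock without passing, and was higher with the scrambled control than in mock (0.19, adjusted p = 0.048). The LARGE2 and RXYLT1 calls were lost in 8 and 10 of 15 alternatives, with an adjusted p of up to 0.135 and 0.153, among them leaving out single arrays of every group. Tested among all probe sets, LARGE2 did not pass against mock (limma, adjusted p = 0.0659).

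In the same list 3 genes rose and 1 fell for mimic against scrambled control, with a median of -0.01 beside -0.01 over all genes, of which 7.56% rose and 6.9% fell (14.5% in all). The 3 were DPM2 (0.23, adjusted p = 0.0412), DPM3 (0.18, adjusted p = 0.0486) and MPDU1 (0.18, adjusted p = 0.0384), which supply or use the dolichol-linked mannose that POMT1 and POMT2 need. They did not pass against mock (0.09, 0.01 and -0.06), where the list's median was -0.01 beside 0.01 over all genes, and MPDU1 was lower with the scrambled control than in mock (-0.23, adjusted p = 0.0201). That MPDU1 call was lost in 6 of 15 alternatives: without scrambled control array 1 or 2, without any one of the mock arrays, and with its 2 probe sets averaged, where the change was -0.03 (adjusted p = 0.775). UXS1, which makes the xylose donor, fell against scrambled control (-0.18, adjusted p = 0.0405) and against mock (-0.29, adjusted p = 0.00336). Against mock, CHST10, a sulfotransferase that can cap the chain, fell as well (-0.25, adjusted p = 0.00314), so that 1 gene rose and 2 fell there, beside 8.32% of all genes that rose and 10.2% that fell. CHST10 was at -0.09 against scrambled control and at -0.16 for scrambled control against mock, and neither passed (limma over genes, adjusted p = 0.254 and 0.0558). The calls of DPM2, DPM3, MPDU1 and UXS1 against scrambled control were lost in 8 to 10 of 15 alternatives each, with an adjusted p of up to 0.579, among them leaving out single arrays of every group. Tested among all probe sets, no probe set of these genes passed against scrambled control (limma, lowest adjusted p = 0.0776, for DPM2).

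Of the dystrophin-associated complex, the partners of dystroglycan at the membrane, 15 of 18 listed genes were measured, and 3 fell and none rose against scrambled control, where 6.9% of all genes fell and 7.56% rose. SSPN, which encodes sarcospan, at its 1 probe set in the highest level class read -1.0, -0.78 and -0.77 on the mimic arrays, 0.00, 0.00 and 0.07 on the scrambled control arrays, and 0.07, 0.12 and 0.12 on the mock arrays. The changes were -0.87 and -0.95 against scrambled control and mock (limma over genes, adjusted p = 7.67e-06 and 4.5e-06), and the mean of its 4 probe sets changed by -0.62 and -0.48. The sarcoglycan genes SGCE (-0.54 and -0.53) and SGCB (-0.30 and -0.39) fell in both, and the syntrophin gene SNTB2 fell against mock (-0.25), which makes 4 falls there, where 10.2% of all genes fell and 8.32% rose. Against scrambled control SNTB2 was at -0.11 as a gene and did not pass, although 2 of its 7 probe sets passed over all probe sets (-0.25 and -0.36, adjusted p = 0.0143 and 0.00694). DMD, which encodes dystrophin, changed by -0.05 and -0.01 without passing, and the list medians were -0.10 and -0.03. The calls of SSPN, SGCE and SGCB in both comparisons, and of SNTB2 against mock, held under every alternative run.

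Of 12 ligand genes, 10 were measured, and 1 rose and 4 fell in each mimic comparison, where 7.56% of all genes rose and 6.9% fell against scrambled control, and 8.32% rose and 10.2% fell against mock. SLIT2, a secreted guidance protein, fell by 0.70 and 0.64 on the log2 scale against scrambled control and mock, AGRN by 0.34 and 0.51, and LAMA4, a laminin alpha chain, by 0.51 and 0.42 (adjusted p at most 0.016). Probe sets of AGRN and LAMA4 disagreed: the mean of 4 for the first changed by -0.20 and -0.32, and the mean of 5 for LAMA4 changed by -0.18 and -0.20. EGFLAM, which encodes pikachurin, fell against scrambled control (-0.20) but was at 0.05 against mock, having risen with the scrambled control over mock (0.25, adjusted p = 0.015). Tested among all probe sets, the EGFLAM fall against scrambled control did not pass (limma, adjusted p = 0.0583). NRXN2 fell against mock (-0.43) and was at -0.26 against scrambled control (adjusted p = 0.0543). HSPG2, the perlecan gene, rose against scrambled control alone by the test (0.24, and 0.10 against mock), and LAMA2 against mock (0.20, and 0.17 against scrambled control, adjusted p = 0.0544). The list medians were -0.14 and -0.08. Calls of SLIT2 and AGRN in both comparisons and of NRXN2 against mock held under every alternative run. The 2 NRXN2 probe sets disagreed. Against mock, 1 changed by -0.80 and the other by -0.05 (limma over probe sets, adjusted p = 0.0025 and 0.668). In the same order, they changed by -0.47 and -0.05 against scrambled control (adjusted p = 0.0497 and 0.677). The gene's fall is thus the mean of 1 probe set that fell and 1 that did not pass. No alternative took the NRXN2 probe sets singly, so their disagreement was not tested by these. Leaving out mimic array 2 or 3 or mock array 2 ended the LAMA4 call against mock (adjusted p up to 0.0634), and leaving out mimic array 1 or 3 or mock array 1 or 2 ended that of LAMA2 (up to 0.0978). Against scrambled control, the EGFLAM call ended without mimic array 2 or scrambled control array 2 or 3 (up to 0.0903) and the HSPG2 call without mimic array 1 or 3 or scrambled control array 2, or with the mean of both probe sets (up to 0.0842). The EGFLAM call of scrambled control against mock ended without scrambled control array 3 or mock array 2 (up to 0.0645).

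Enzymes that resemble the members were also listed. Of 5 other protein O-mannosyl transferases, TMTC2 rose by 0.31 against scrambled control and 0.20 against mock, and 4 did not pass. Of all genes, 14.5% were called against scrambled control and 18.6% against mock. B4GAT1 was formerly grouped with the B3GNT family, N-acetylglucosaminyltransferases of other chains, and of its 8 genes 2 rose with the mimic in both comparisons and 6 did not pass, where 7.56% of all genes rose against scrambled control and 8.32% against mock. B3GNT5 read 0.98, 0.78 and 1.0 on the mimic arrays, -0.07, -0.16 and -0.27 on the scrambled control arrays, and 0.00, -0.34 and 0.03 on the mock arrays. It was 2.12-fold and 2.04-fold higher with the mimic (adjusted p = 3.87e-05 and 5.46e-05), at 1 of its 3 probe sets, and the other two changed by 0.00 and 0.11 against scrambled control. The mean of all 3 changed by 0.40 and 0.43. B3GNT3 rose by 0.40 and 0.32, and B3GNT2 was lower with the scrambled control than in mock (-0.18, adjusted p = 0.0428), a call lost in 10 of 15 alternatives (up to 0.146), single arrays of every group left out among them. With the mimic against mock B3GNT2 was at -0.09 and did not pass, and with the mean of its 3 probe sets it was lower (-0.17, adjusted p = 0.0313). Against mock, the TMTC2 call ended without mock array 2 (adjusted p = 0.0691) and the B3GNT3 call with quantile normalization or without mimic array 2 or 3 or mock array 2 or 3 (up to 0.0826).

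Over all 5 lists, 7 of 50 measured genes rose and 8 fell against scrambled control, and 5 rose and 10 fell against mock. For scrambled control against mock 2 rose and 2 fell. Called genes made up 14.5%, 18.6% and 7.82% of all genes in the same comparisons.

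**Figure D4:**
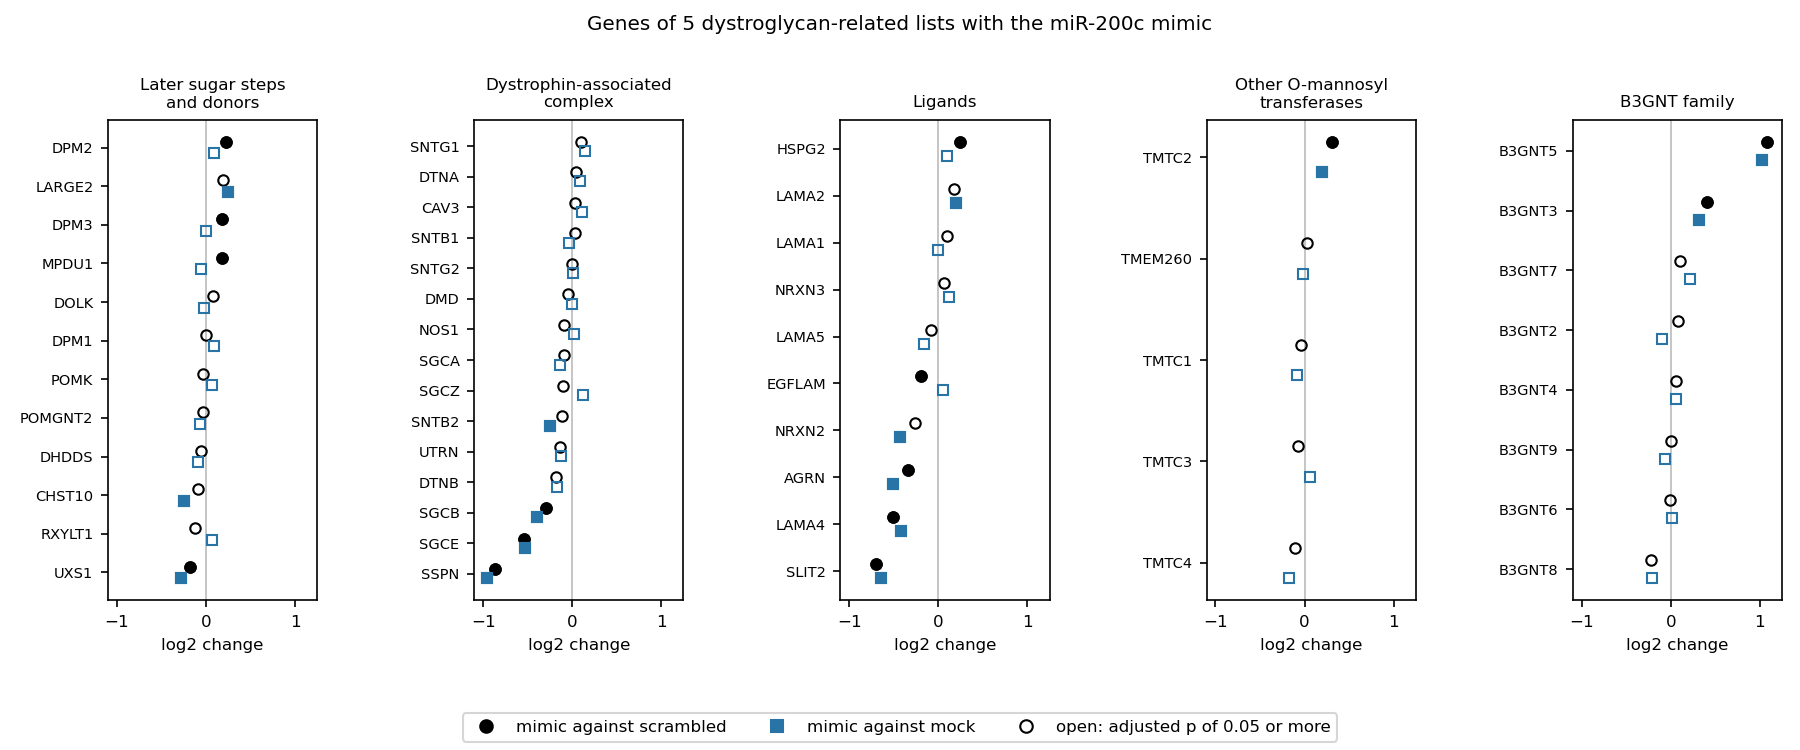
Log2 change (horizontal axis) of the 50 measured genes of the 5 lists for mimic against scrambled control (circles) and mimic against mock (squares), 1 panel per list, and filled symbols have an adjusted p under 0.05. SSPN, SGCE and SLIT2 lie lowest and B3GNT5 highest, and most genes lie near 0.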

How the data were processed

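Expression was measured on 9 Affymetrix arrays (3 each of miR-200c mimic, scrambled control and mock). The authors deposited 1 table of log2 values, centred per probe set; that the base is 2 is assumed, and their summarisation and normalisation are not given in the sources used here. Every value column was mapped to a sample. After 62 control probe sets were left out, 54613 were tested. The 2016 platform annotation gave 41091 of these 1 gene symbol, 1801 several and 11721 none. A gene's value was the mean of its probe sets in its highest level class.

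Fits used limma 3.58.1 in R 4.3.3 (lmFit, eBayes) on all 9 arrays with no covariate, two-sided, with Benjamini-Hochberg adjustment over all probe sets or genes and a threshold of 0.05. In simulated data for mimic against scrambled control, the gene fit recovered 43.2% of changes of 0.25 log2 and 95.2% of changes of 0.5. Of 886 calls, 40 were false. A change of 0.25 or smaller that did not pass can therefore have been missed. Between replicates of a group, arrays differed over probe sets by an SD of 0.12 to 0.16, and the median SE of a change was 0.07.

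Members, lists and tests were chosen with earlier results of these data known. All members are named, as are ZEB1 and CDH1, the 5 genes most like B4GAT1, and list genes called in any comparison. POMK, POMGNT2 and DMD, and the marker genes PAX8, WT1, ESR1 and PGR, were named after their values were seen. Of 61 list genes, 50 were measured, and the rest are not analysed or reported here. Alternatives were quantile normalization, only the 6 arrays compared, no probe sets of the lowest level class, a replicate block, robust eBayes, the mean of all probe sets, and leaving out each array.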

Additional observations from a re-analysis of the deposited data

How the results depend on the processing

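B4GAT1 203188_at kept its direction and a size of at least 1 log2 unit in both mimic comparisons under every alternative that tested probe sets. Of the 12 member probe sets, 1 was called in each comparison. With quantile normalization 2 were called for mimic against scrambled control, and leaving out 1 array gave 1 to 3. Beside that, leaving out 1 array gave 3448 to 4494 calls over all probe sets in place of 4730. For mimic against mock leaving out 1 array gave 1 to 2, and for scrambled control against mock 0 to 1. The counts of both mimic comparisons include B4GAT1 203188_at, and nothing is read from them. With only the 6 arrays compared, and with the replicate block, 0 members were called for scrambled control against mock, and 2 of the list genes in place of 4 (0 to 4 on leaving out 1 array). At an unadjusted p under 0.05, 2 members, POMGNT1 233638_s_at and B3GALNT2 1553691_at, passed there in the fit of all arrays (limma, adjusted p = 0.0352 and 0.201). The share of all probe sets at that looser threshold is not given here, so nothing is read from this count. Probe sets called there were 1409 with only the 6 arrays and 1366 with the replicate block in place of 2223 (732 to 2059 on leaving out 1 array, lowest without mock array 2), and genes ranged from 751 to 1608 in place of 1547. For mimic against mock, probe sets called ranged from 4349, without mock array 2, to 6599 in place of 6585. No pairing by replicate number was seen: deviations of same-numbered arrays correlated at -0.24 to 0.15 (9 pairs of arrays) and others at -0.22 to 0.36 (18 pairs). With 3 arrays per group these values cannot exclude a pairing. Under the replicate block POMT1 as a gene lost its call against mock (adjusted p = 0.0707), as did POMGNT1 233638_s_at for scrambled control against mock (adjusted p = 0.06).

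Changes near 0 could turn sign on leaving out 1 array. For mimic against mock the ranges were -0.063 to 0.022 for POMGNT1 217944_at, which is also the gene's value, -0.049 to 0.0001 for B3GALNT2 1553691_at, -0.073 to 0.036 for 1561714_a_at, -0.025 to 0.094 for 1562391_at and -0.019 to 0.045 for DPM3. For scrambled control against mock they were -0.0050 to 0.031 for POMT1, -0.058 to 0.10 for B3GALNT2 1561714_a_at and -0.15 to 0.027 for 1562391_at. With the mean of all probe sets, MPDU1 (0.023) and HSPG2 (-0.11) turned sign for mimic against mock. The cause of these changes was not tested. Signal over background cannot be had from centred values, and the POMGNT1 probe set of the lowest level class may hold little signal.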
